A study of Caenorhabditis elegans with 6 samples.

Results

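The piRNA precursor windows described here lie between 14 and 15 Mb of chromosome IV of Caenorhabditis elegans, inside the large piRNA cluster at the right end of that chromosome. They were chosen by position alone, as every window of the deposited table whose start on chromosome IV was 14000000 or higher and below 15000000, on both strands. This gave 3500 of the 15703 windows in all, 1767 on the plus strand and 1733 on the minus strand. The values were counts of small RNA reads from isolated germ nuclei whose first base fell in a window of 24 bases. By their deposited coordinates, the windows lay 26 to 33 bases toward lower values from the annotated mature piRNA. Taken as they stand, these positions are upstream of it on the plus strand and downstream of it on the minus strand. Among the windows named below, the shift was 26 bases near the left boundary and 33 near the right one, on both strands. Such a shift in 1 direction would also arise if the windows had been placed on another genome build than the annotation, and this was not tested. Which side of the piRNA the windows cover is therefore not known. Positions in brackets are those of the mature piRNA on the build WBcel235. Before the libraries were made, RNA was dephosphorylated and its caps were then removed, which favours molecules that carried a cap, as precursors do. Worms of the strain YL701 carried ISW-1 fused to eGFP and the degron AID, together with wrdSi51, a transgene that expresses TIR1, which marks degron-tagged proteins for destruction when auxin is present, under the promoter of mex-5 (a germline promoter), and both conditions carried both alleles. After 45 h of growth from synchronised first-stage larvae at 22 °C, worms spent 3 h on plates holding 1 mM auxin (the knockdown) or ethanol (ETOH, the control). Each condition had 3 libraries, and the 3 were pooled into 1 column before counting. The difference between the columns therefore has no replicate check, and no test between conditions was possible. All intervals below are 95% intervals, and those of ratios and of shares of counts cover counting error only. PCR copies, if they were not removed, make these intervals too narrow. Intervals of shares of windows with a count treat windows as independent, although many overlapped a neighbour.

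piRNAs of the worm, called 21U-RNAs, guide the Argonaute protein PRG-1 in the germ line, where they silence transposons and other foreign sequences. Each is made from its own very short gene: RNA polymerase II makes a capped precursor, which is then trimmed at both ends to the mature piRNA. Most of these genes sit in broad clusters on chromosome IV, in introns and between genes, and depend on a conserved motif upstream of the start that is bound by the upstream sequence transcription complex (PRDE-1, SNPC-4, TOFU-4 and TOFU-5). ISW-1 is the ATPase of the ISWI family, whose members space nucleosomes. The comparison asks how much precursor was counted when ISW-1 was meant to be removed. The removal acts on protein and could not be checked in these counts, and neither could the purity of the nuclei, since the table holds no marker genes.

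The region held 133520 counts in the ETOH column and 120313 in the auxin column (ratio 0.901, interval 0.894 to 0.908). One window set this total. This was 21ur-4459 (IV:14723071-14723091, between genes on the plus strand), with 84352 ETOH and 84612 auxin counts (ratio 1.00, interval 0.994 to 1.01). Its raw counts thus did not differ beyond counting error. With the scalings described below, its log2 ratio was 0.40 by column totals and 0.65 by TMM. The window of 21ur-4459 made up 63.2% of the counts of the region in ETOH (62.9 to 63.4) and 70.3% in auxin (70.1 to 70.6). Without it the other 3499 windows held 49168 and 35701 counts (ratio 0.726, interval 0.716 to 0.736). Of the counts of all windows in the table other than 21ur-4459 and 21ur-2844, the most abundant window of the table, the region held 18.4% in ETOH and 16.1% in auxin. With 21ur-4459 kept the share was higher in auxin. It was 38.0% in ETOH and 39.3% in auxin without 21ur-2844, and 29.0% and 34.2% of all windows. Only piRNA windows were counted and total library depth is not known, so a change shared by all precursors cannot be told apart from a difference in depth, nor fewer germ nuclei from less RNA per nucleus. Over all windows of the table the ratio was 0.763, and without 21ur-2844 it was 0.871.

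Most windows of the region with at least 10 counts had fewer raw counts in auxin. Ratios were taken for windows that reached 10 counts when both columns were added, which left 334 windows (9.54%, beside 8.41% in the table). Among them 265 had the lower count in auxin, 58 had the higher count there and 11 were equal. In the whole table, 78.5% of the 1320 such windows had the lower count in auxin, and in this region 79.3% did, so the share was near the background. The median ratio was 0.600 (log2 −0.74, quartiles −1.43 and −0.18), against 0.634 over all windows of at least 10 counts (log2 −0.66). A difference of at least 2-fold in raw counts was present in 134 windows toward lower and in 18 toward higher counts in auxin. In percent, 40.1% were at least 2-fold lower, against a background of 38.9% in the table, and 5.39% were at least 2-fold higher, against 4.02%. The counting interval of the ratio lay wholly below 1 in 143 windows (42.8%, background 40.7%) and wholly above 1 in 7 (2.1%, background 2.42%). Of windows past 2-fold, 88.2% were lower in raw counts. The share was 74.2% when each column was scaled to its total (89 lower and 31 higher). It was 62.0% with TMM scaling (62 lower and 38 higher), which sets the typical window of the table at no change and places the auxin column at 0.637 of ETOH, which is −0.65 in log2. With that scaling, the percentages of 18.6 lower and 11.4 higher stood beside 17.4 and 10.5 in the table. The counting interval lay wholly below the TMM ratio in 60 windows (18.0%, background 15.6%) and wholly above it in 49 (14.7%, background 15.9%).

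**Figure D1:**
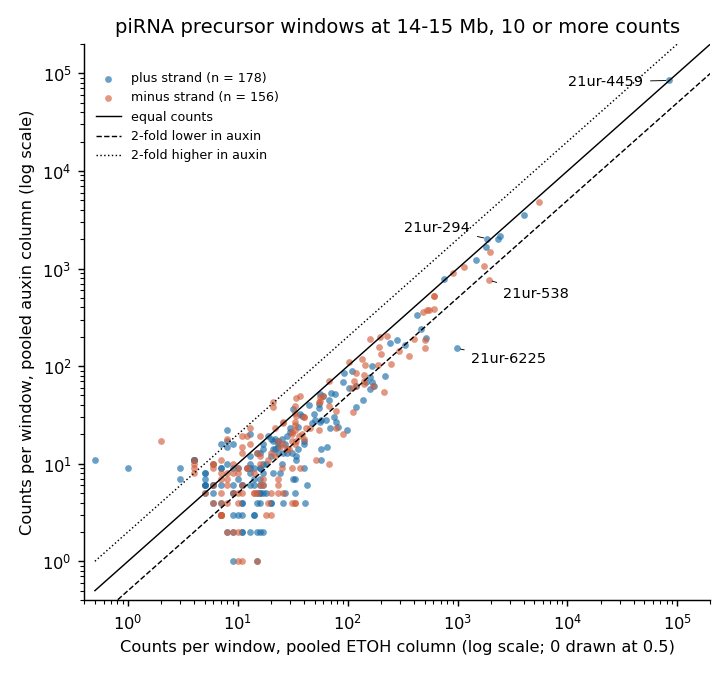
Counts of the 334 windows that reached 10 counts in all, pooled ETOH column on the x axis and pooled auxin column on the y axis, both on log scales, coloured by strand; lines mark equal counts and 2-fold differences. Most points lie below the line of equal counts, 21ur-4459 lies on it at 84352 and 84612 counts, and 21ur-6225 and 21ur-538 are the abundant windows beyond the 2-fold line.

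The ratio differed with the abundance of the precursor. The 17 windows with 1000 or more counts over both columns had a median ratio of 0.871, and the 66 windows with 100 to below 1000 counts had a median of 0.562. In the latter class 62 of 66 windows had fewer counts in auxin, 28 were at least 2-fold lower and none was at least 2-fold higher. These are 93.9% lower in auxin and 42.4% at least 2-fold lower, against 87.6% and 33.2% of the 259 windows of this class in the table. With TMM scaling 7 of the 66 were at least 2-fold lower (10.6%), against 9.27% in the table. Summed, this class had 12830 ETOH and 7287 auxin counts (ratio 0.568, interval 0.552 to 0.584). Below 100 counts the medians were 0.673 from 50 to below 100 counts (47 windows), 0.548 from 20 to below 50 (109 windows) and 0.667 from 10 to below 20 (95 windows). The 623 windows with 1 to below 10 counts held 1282 ETOH and 804 auxin counts (ratio 0.627, interval 0.574 to 0.685). Counts were therefore more concentrated in auxin. Leaving 21ur-4459 out, the windows of 1000 or more counts held 61.1% of the counts in ETOH (60.7 to 61.5) and 68.9% in auxin (68.4 to 69.4), and those of 100 to below 1000 counts held 26.1% and 20.4%. Without 21ur-4459, the fewest windows that together held 50% of the counts numbered 10 in ETOH and 8 in auxin.

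The same step between abundant and other windows was present in the adjoining parts of the cluster. At 13 to 14 Mb, to the left, the median ratio was 0.839 in the 4 windows of 1000 or more counts and 0.650 in the 21 windows of 100 to below 1000 counts. At 15 to 16 Mb the median ratio was 0.839 in the 14 windows of 1000 or more counts and 0.648 in the 51 windows of 100 to below 1000 counts. At 16 to 17 Mb the medians were 0.804 and 0.644, in 16 and 63 windows, and over the whole table they were 0.871 and 0.662, in 71 and 259 windows. At 14 to 15 Mb the class of 100 to below 1000 counts thus had the lowest median of these sets, but not the lowest value by other measures. Its ratio of summed counts was 0.568, against 0.561 at 16 to 17 Mb, 0.587 at 13 to 14 Mb and 0.627 at 15 to 16 Mb. With TMM scaling 10.6% of its windows were at least 2-fold lower, against 15.9%, 4.76% and 5.88% in the same order. No test of the difference between regions was possible with pooled columns.

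**Figure D2:**
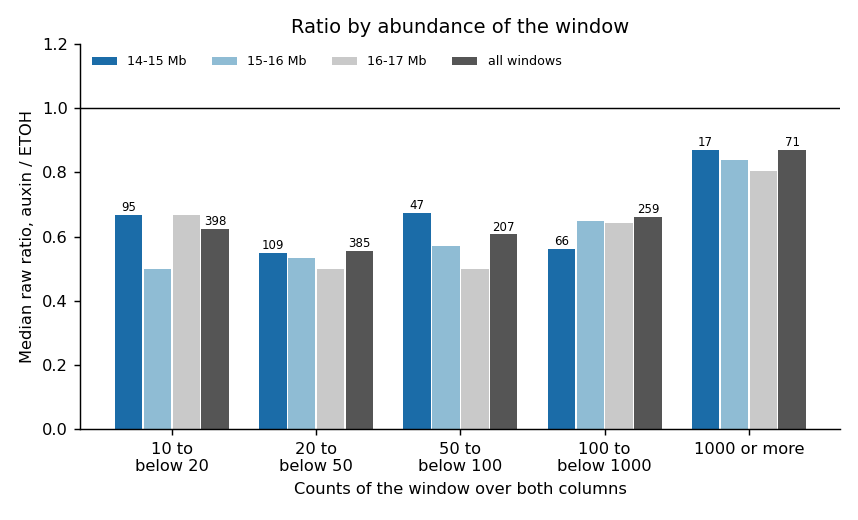
Median raw ratio of auxin to ETOH (y axis, from 0) for windows grouped by their counts over both columns (x axis), for the region at 14-15 Mb, the 2 adjoining parts of the cluster to the right and all windows; numbers above bars give the windows in each class for 14-15 Mb and for all windows, and the line at 1 marks equal counts. In every class the median lies below 1, and it is highest, at 0.871 for 14-15 Mb, in windows of 1000 or more counts.

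After 21ur-4459, the 11 most abundant precursors of the region had 26188 ETOH and 21732 auxin counts, at a ratio of 0.830. Of these 11, 10 had fewer raw counts in auxin, most of them by a similar factor. Set against the TMM ratio of 0.637, the direction was mostly the other way. Of the 17 windows of 1000 or more counts, 14 had a counting interval wholly above that ratio (82.4%, background 84.5%). Another 2 had one wholly below it. The window of 21ur-5608 (IV:14661105-14661125, minus strand) lay in an intron of anoh-2, a gene of the anoctamin family, on the strand opposite to the gene, and had 5485 ETOH and 4844 auxin counts (ratio 0.883, interval 0.850 to 0.918). That of 21ur-6011 (IV:14754109-14754129, plus strand), over an exon of Y57G11C.499 on the opposite strand, had 4029 and 3525 counts (ratio 0.875, interval 0.836 to 0.916). Its window overlapped another on the same strand, so part of its reads may not have been counted. For 21ur-2172 (IV:14885188-14885208, plus strand), in an intron of eps-8, the counts were 2449 and 2133 (ratio 0.871, interval 0.822 to 0.923). The ratios of these 3 windows lay within each other's intervals.

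Between genes, 21ur-1087 (IV:14607317-14607337, plus strand) had 2309 ETOH and 1990 auxin counts (ratio 0.862, interval 0.811 to 0.916). The window of 21ur-864 (IV:14640090-14640110, plus strand), in an intron of srlf-27 on the same strand, had 1803 and 1678 (ratio 0.931, interval 0.870 to 0.995). Only 2107 bases away on the other strand, 21ur-1122 (IV:14642198-14642218) had 1969 and 1461 (ratio 0.742, interval 0.693 to 0.794), and the intervals of these neighbours did not overlap. The window of 21ur-1618 (IV:14998892-14998912, plus strand), over the non-coding RNA gene Y41E3.461 on the opposite strand, had 1477 and 1225 counts (ratio 0.829, interval 0.768 to 0.895). That of 21ur-3470 (IV:14725492-14725512, minus strand), between genes, had 1134 and 1041 (ratio 0.918, interval 0.843 to 0.999).

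Among the 11 most abundant precursors after 21ur-4459, a single one had more counts in auxin. The window of 21ur-294 (IV:14887062-14887082, plus strand), in an intron of eps-8 on the same strand, had 1865 ETOH and 2020 auxin counts (ratio 1.08, interval 1.02 to 1.15). It lay 1.87 kb from 21ur-2172, on the same strand and in the same gene, whose ratio was 0.871, so in raw counts this pair in one host gene lay on either side of equality. With scaling both lay above no change, with log2 ratios of 0.51 for 21ur-294 and 0.19 for 21ur-2172 by column totals, and 0.77 and 0.45 by TMM. Outside these 11, and chosen after its values were seen, 21ur-2971 (IV:14372972-14372992, plus strand, outside protein-coding genes) was the remaining window of 1000 or more counts with the higher count in auxin. It had 748 and 780 counts, and the interval of its ratio, 0.942 to 1.15, held equality. At the other end, 21ur-5362 (IV:14165314-14165334, minus strand, between genes) had 1754 and 1053 counts (ratio 0.600, interval 0.556 to 0.648). The window of 21ur-538 (IV:14681730-14681750, minus strand), in an intron of Y57G11C.31 on the opposite strand, had 1914 and 762 counts (ratio 0.398, interval 0.366 to 0.433). A pair of windows near it on the same strand, singled out after their values were seen, differed from it. There 21ur-2061 counted 914 and 897 and 21ur-5226 counted 192 and 156, with ratios of 0.981 and 0.813, and 21ur-5226 lay 3.11 kb from 21ur-538.

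**Figure D3:**
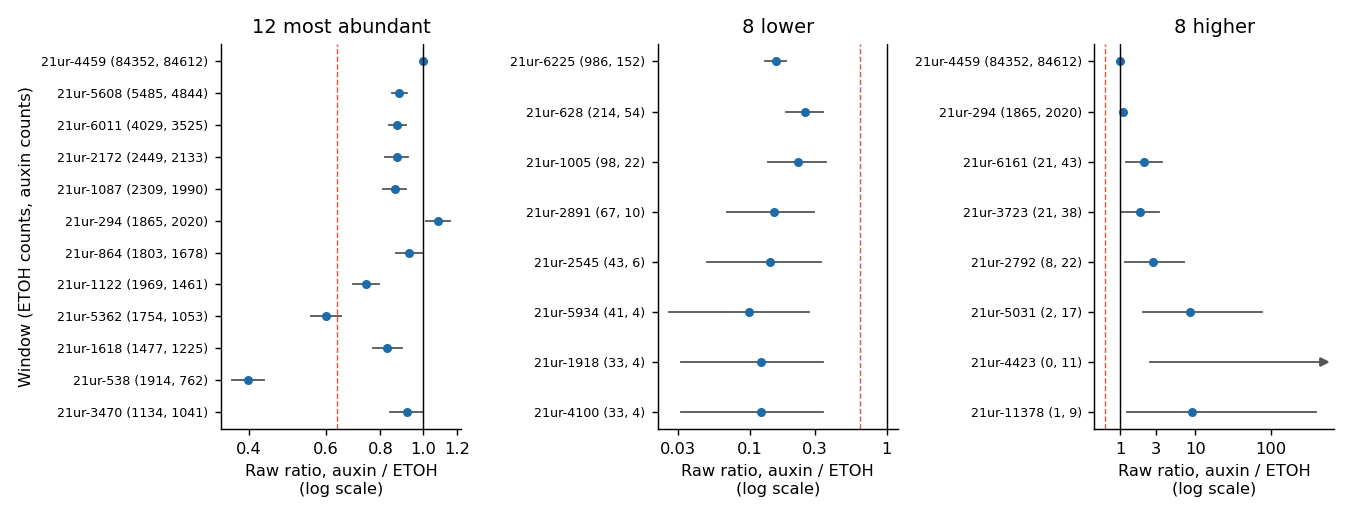
Raw ratio of auxin to ETOH (x axis, log scale, with a scale of its own in each panel) of the 12 most abundant windows, the 8 lower and the 8 higher windows, with 95% counting intervals as lines and the counts of both columns beside each name; the solid line marks equal counts, the dashed line the TMM ratio of 0.637, and the arrow a window with 0 counts in ETOH. Most abundant windows lie between the dashed line and equality, with 21ur-538 at 0.398 the lowest of them.

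The 8 lower and the 8 higher windows were named because their counting intervals, after TMM scaling, lay farthest from no change, so their ratios were picked from 334 and may lie too far out. The lower window with the most counts was that of 21ur-6225 (IV:14700678-14700698, plus strand, between genes), with 986 ETOH and 152 auxin counts (ratio 0.154, interval 0.129 to 0.183). It was the only one of the 17 windows of 1000 or more counts, apart from 21ur-538, that was at least 2-fold lower. To its left, 21ur-628 (IV:14690413-14690433, minus strand, between genes) had 214 and 54 counts (ratio 0.252, interval 0.184 to 0.342). The window of 21ur-1005 (IV:14749919-14749939, plus strand, between genes) had 98 and 22 (ratio 0.224, interval 0.135 to 0.359), while its abundant neighbour 21ur-6011, 4.19 kb away on the same strand, had a ratio of 0.875. The other 5 lower windows, 21ur-2891, 21ur-2545, 21ur-5934, 21ur-1918 and 21ur-4100, had from 33 to 67 ETOH and from 4 to 10 auxin counts. Of these, 21ur-2891 lay in an intron of Y67A10A.7 and 21ur-1918 in an intron of Y57G11B.6, and 21ur-5934 lay over a pseudogene on the opposite strand.

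Among the 8 higher windows, 21ur-4459 and 21ur-294 entered through their narrow intervals, since both had close to equal raw counts in a table whose typical window was lower. The other 6 had few counts. For 21ur-6161 (IV:14128703-14128723, minus strand, between genes) there were 21 ETOH and 43 auxin counts (ratio 2.05, interval 1.19 to 3.63). For 21ur-3723 (IV:14398349-14398369, minus strand), in an intron of clc-8, a gene of the claudin-like family, there were 21 and 38 (ratio 1.81, interval 1.03 to 3.25). The window of 21ur-2792 (IV:14973763-14973783, plus strand, between genes) had 8 and 22 counts (ratio 2.75, interval 1.18 to 7.14). At still lower counts, 21ur-5031 had 2 and 17 counts and 21ur-11378 had 1 and 9, and intervals of their ratios ran from 2.02 to 75.9 and from 1.25 to 394. Inside an intron of ssu-2, 21ur-4423 (plus strand, as the gene) had 0 ETOH and 11 auxin counts, at least 3.67-fold higher in raw counts when ETOH is set to a floor of 3 counts. In raw counts, no window with at least 100 counts was 2-fold higher in the region, nor in the table (0% of 330), while 30 of 83 such windows in the region were at least 2-fold lower (36.1%, background 27.6%). With TMM scaling 8 of the 83 were 2-fold lower (9.64%, background 8.18%) and 0 were 2-fold higher, against 2.12% in the table.

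The windows around 21ur-4459 had a wide range of ratios. Within 25 kb on either side lay 194 other windows, of which 58 had a count and 14 had at least 10 counts. In this set 10 were lower in auxin and 4 higher, and the ratios ran from 0.15 to 2.75 with a median of 0.656. Most of these windows had few counts, and the interval held equality in 10 of them and lay wholly below it in the other 4, which were 21ur-6225, 21ur-5515, 21ur-5755 and 21ur-3470. The only one with over 1000 counts in each column was 21ur-3470, 2.42 kb to the right on the opposite strand, at 0.918 (0.843 to 0.999). The next most abundant, 21ur-6225, lay 22.4 kb to the left at 0.154. The remaining 12 had 4 to 31 counts in ETOH, among them 4 in lgc-8, a gene of the ligand-gated ion channel family, where 21ur-5755 had 20 and 3 counts and 21ur-14761 had 7 and 16.

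Along the region, all 10 steps of 100 kb had a median below equality. Per step, the number of windows ran from 257 to 429, the share with a count from 24.1% to 30.1%, and the number with at least 10 counts from 20 to 46. The median ratio per step ran from 0.545 to 0.745, and the share of windows with the lower count in auxin ran from 66.7% to 94.3%. The highest median, 0.745, was that of the leftmost step, from 14 to 14.1 Mb, with 17 of 23 windows lower. The lowest, 0.545, was shared by the steps from 14.5 to 14.6 Mb and from 14.9 to 15 Mb, where 33 of 35 and 40 of 46 windows had fewer counts. Ratios of summed counts, with 21ur-4459 left out, ran from 0.480 at 14.4 to 14.5 Mb (2042 and 981 counts) to 0.816 at 14.8 to 14.9 Mb (6927 and 5652 counts). In the latter step 21ur-2172 and 21ur-294 held most of the counts, and its median was 0.571, so the summed ratio and the typical window differed there.

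**Figure D4:**
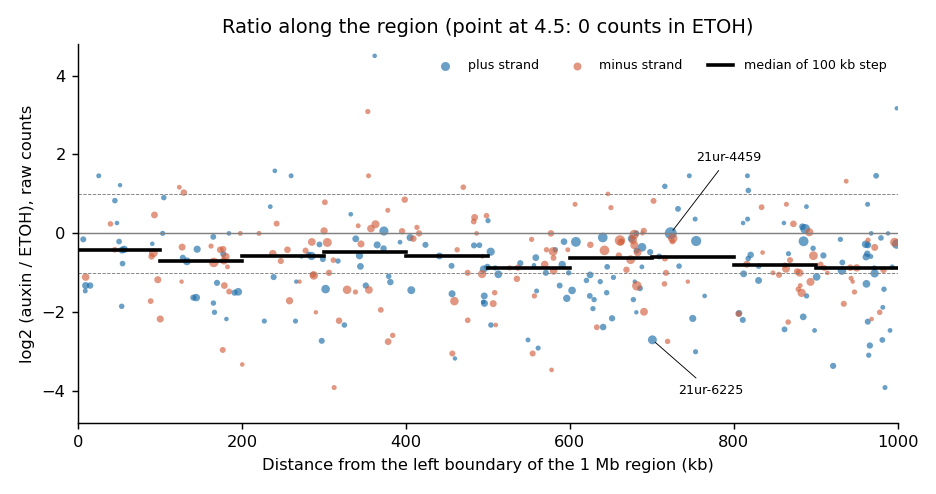
log2 ratio of auxin to ETOH in raw counts (y axis) of the 334 windows with at least 10 counts against distance from the left boundary of the region (x axis, kb), coloured by strand, with larger points for more counts and black bars for the median of each 100 kb step. All 10 medians lie below 0, between −0.87 and −0.42. Single windows lie on both sides of 0 in every step, though only 1 of 35 lies above it at 14.5 to 14.6 Mb.

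At each boundary of the region, the ratios of the 3 nearest windows inside and the 3 nearest outside overlapped in range. The last 3 windows of at least 10 counts before the left boundary, 21ur-4882, 21ur-2766 and 21ur-5432, had ratios of 0.147, 1.15 and 0.705. The first 3 inside it, 21ur-3726, 21ur-3869 and 21ur-2949, had ratios of 0.9, 0.364 and 0.4. At the right boundary the last 3 inside were 21ur-1912, 21ur-1618 and 21ur-11378, at 0.856, 0.829 and 9, and the first 3 outside were 21ur-394, 21ur-12149 and 21ur-12313, at 0.375, 0.276 and 0.877. Some of these had few counts, such as 21ur-11378 with 1 and 9 and 21ur-394 with 8 and 3. With 3 windows a side, a difference across a boundary could not be judged.

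Both strands showed lower counts in auxin. On the minus strand, 25173 counts in ETOH stood against 17600 in auxin, a ratio of 0.699 (0.686 to 0.713). The plus strand without 21ur-4459 had 23995 and 18101 (ratio 0.754, interval 0.740 to 0.769), and with it 108347 and 102713, at a ratio of 0.948. The order was the other way round for single windows, with a median ratio of 0.575 over 178 plus-strand windows and 0.625 over 156 minus-strand windows. The share of windows with a count was 29.4% on the plus strand (27.3 to 31.6) and 25.3% on the minus strand (23.2 to 27.4).

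Of the windows of the region, 1651 lay in 97 protein-coding genes, 1500 in introns and 151 over exons. Another 1819 lay outside protein-coding genes, some of them over other kinds of gene, and 30 were not located. Precursors in protein-coding genes had a median ratio of 0.630 (161 windows with at least 10 counts, 128 of them lower). Those outside them had a median of 0.564 (172 windows, 136 lower). Inside genes, windows on the strand of the host gene had a median of 0.636 (71 windows) and those on the opposite strand 0.628 (90 windows). The 16 windows over exons had a median of 0.711, against 0.625 for the 145 in introns. No test of these differences was possible.

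The 3 genes that held the most precursors with at least 10 counts were eps-8, Y64G10A.7 and tag-273. The gene eps-8 (IV:14879484-14900653, plus strand), whose product is related to mammalian EPS8, a protein that binds actin, held 100 windows, of which 32 had a count and 14 had at least 10 counts. Of these 14, 10 had fewer counts in auxin (71.4%, background 78.5%) and 7 were at least 2-fold lower (50%, background 38.9%). With TMM scaling 2 of the 14 were at least 2-fold lower (14.3%, background 17.4%). The median raw ratio of the 14 was 0.581. The 8 on the strand of the gene summed to 4455 ETOH and 4229 auxin counts, at a ratio of 0.949, of which 21ur-2172 and 21ur-294 made up most. The 6 on the opposite strand summed to 1505 and 879, at a ratio of 0.584. Among the latter, 21ur-4600 had 361 and 127 counts and 21ur-1623 had 246 and 105, ratios of 0.352 and 0.427, whereas 21ur-5856 had 196 and 200 (ratio 1.02, interval 0.834 to 1.25). Precursors with ratios near 0.4 and near 1 thus lay within one gene and on one strand.

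In Y64G10A.7 (IV:14291901-14319591, plus strand) 33 of 112 windows had a count and 12 had at least 10 counts. Of these 12, 10 were lower in auxin (83.3%, background 78.5%), with a median ratio of 0.620. Its most abundant precursors were 21ur-5188 (minus strand), with 606 and 517 counts, and 21ur-3730 (plus strand), with 511 and 192. They lay 2.11 kb apart, and their ratios of 0.853 (0.757 to 0.961) and 0.376 (0.317 to 0.444) did not overlap in their intervals. In tag-273 (IV:14487087-14505166, minus strand) 28 of 99 windows had a count and 12 had at least 10 counts. Again 10 of the 12 were lower (83.3%, background 78.5%), with a median ratio of 0.543. There 21ur-8141 had 292 and 143 counts and 21ur-4464 had 240 and 174, ratios of 0.490 (0.398 to 0.600) and 0.725 (0.593 to 0.885), while 21ur-4819 had 82 and 24 (ratio 0.293, interval 0.178 to 0.466).

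Of the 3500 windows, 957 had a count in either column (27.3%, 25.9 to 28.9), beside 25.7% in the table, and 2543 had none. A count was present in 795 windows in ETOH and in 721 in auxin: 559 in both, 236 in ETOH alone and 162 in auxin alone. Among the 15703 windows of the table, 974 had a count in ETOH alone and 787 in auxin alone. Windows counted in 1 column alone were weak. Those in ETOH alone had at most 9 counts and 87 had a single one, and those in auxin alone had at most 11 and 93 had a single one. Sampling the ETOH counts down to the auxin total of the table would leave 755 windows with a count on average, and down to the TMM ratio 724.7, against the 721 counted in auxin. For windows with at least 3 counts in a column, the numbers were 526 in ETOH and 421 in auxin, with 468.5 and 430.9 from the same calculations. Thinned to the TMM ratio, which was itself set from the counts of the table, ETOH came close to the numbers counted in auxin. Thinned to the auxin total, ETOH stayed above them. No spread of the expected numbers was calculated, so a loss of detected precursors in the region was not tested.

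A large share of the windows without counts overlapped another window. In all, 1545 windows overlapped a neighbour on their own strand, and 61 of them (3.95%) had a count, against 896 of the 1955 others (45.8%). A read whose first base lay in both windows of a pair was counted for neither. In the 45 plus-strand pairs whose starts were 4 bases apart, the upstream window had a count in 16 and the downstream window in 1. In the 204 pairs that were 1 base apart these numbers were 3 and 1. On the minus strand the 39 pairs that were 4 bases apart had 3 and 0. Joining overlapping windows of a strand left 2646 loci, of which 955 had a count. The 0 counts of overlapping windows do not show that a precursor was absent.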

How the data were processed

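The table held 15703 windows with 1 pooled column of counts for each of the 2 conditions. The deposited values were whole-number counts, with no normalization by the authors. Per the file headers, featureCounts 2.0.3 counted reads by strand and by their 5′ base, with multi-mapping reads included, from 1 merged alignment file per condition. No source used here names the aligner, the trimming or a use of molecular identifiers. Reads from precursors of identical sequence could be counted for more than 1 window.

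The build ce11 is named in the submitters' processing notes. Windows were matched by name, chromosome, strand and a distance of at most 200 bases to piRNAs of the Ensembl release 115 annotation of WBcel235. This located 3470 of the 3500 windows of the region, all displaced from the annotated piRNA by 26 to 33 bases in the same direction on both strands, and 0 of them overlapped it. No coordinates were converted. Printed positions belong to the mature piRNA (21 bases) of the annotation, and gene context was taken from them, whereas the boundaries of the region, its steps and the distances between windows use the positions in the table. No genome sequence was used, so upstream motifs were not analysed here.

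Ratios are auxin over ETOH in raw counts, given for windows that reached 10 counts in both columns together, with exact conditional binomial intervals; intervals of shares are Clopper-Pearson intervals. A median of log2 ratios over an even number of windows was turned back into a ratio, and medians of a set can differ slightly for that reason. TMM scaling came from edgeR 4.0.16 in R 4.3.3, over all 1320 windows of the table with at least 10 counts. It was tested on simulated counts in which as many windows were raised as lowered. That test does not cover a table in which most windows past 2-fold are lower. Expected numbers of windows at lower depth were calculated from the hypergeometric or binomial distribution. Because libraries were pooled, edgeR's quasi-likelihood test could not be run.

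The region and the sets of windows were chosen with earlier results of these data known. The windows named were 21ur-4459, the 12 most abundant, the 8 lower and 8 higher with the interval farthest from the TMM ratio at its nearer bound, those in the 3 genes with the most windows of at least 10 counts, and 3 on each side of both boundaries. Others are said to have been chosen after their values were seen, and the windows near 21ur-4459 were chosen in that way too.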

Additional observations from a re-analysis of the deposited data

How the results depend on the processing

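No paired analysis was possible because each column merges 3 libraries, and fits with a replicate block or without single libraries were not run. The ratio of summed counts, 0.901, was 0.726 without 21ur-4459, 0.606 without the 10 most abundant windows and 0.581 without the 17 windows of 1000 or more counts, and 0.726 became 0.715 without overlapping windows. The median log2 ratio of −0.74 was −0.87 with no count minimum, −0.35 with scaling to column totals and −0.087 with TMM scaling, which subtract a common shift. Beside 134 windows at least 2-fold lower and 18 higher, 467 and 216 were counted with no minimum (more windows of few counts entered), 30 and 0 at 100 or more counts (fewer entered), 89 and 31 with column totals and 62 and 38 with TMM scaling. Of 30 alternatives to these results, 15 moved them and 0 turned their direction. Many of the 30 were numbers of windows, which have no direction to turn, so the 0 is no measure of stability. Under TMM scaling the log2 ratio of 17 of 65 named windows changed sign, by the common shift alone. The removal of windows of 1000 or more counts, the count of loci and the thinning to the TMM ratio were chosen after the data were seen.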
